A study of Mus musculus with 6 samples.

Results

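The genes described here carry glucose into the cell and break it down: the glucose and lactate transporters, the enzymes of glycolysis, the oxidative and non-oxidative pentose phosphate pathway, the entry of pyruvate into mitochondria, the glucose-sensing transcription factors and the enzymes of glycogen. They were chosen by symbol from a list of 51 genes, and all 51 were found among the 23282 rows of the count files. Liver sinusoidal endothelial cells (LSECs), the fenestrated cells that line the liver's capillaries, gave 6 libraries, of which 3 were from *Txnip-/-* and 3 from WT animals. The *Txnip-/-* mice were whole-body knockouts on the C57BL/6J strain, so every other cell of theirs lacked the gene too, and the WT mice were C57BL/6J. LSECs were obtained by collagenase perfusion, a density gradient and magnetic beads against CD146. The paper describes culture of the selected LSECs in an endothelial growth medium. Whether the sequenced cells were cultured, and at what glucose, was not stated. No treatment was listed for these cells, the age and sex of the mice were not given in the sources used here, and nothing said whether the libraries of a genotype came from separate mice. The p-values below therefore measure the spread between these libraries, which may be technical.

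*Txnip* encodes thioredoxin-interacting protein, an alpha-arrestin. It binds the glucose transporters GLUT1 and GLUT4 and draws them from the plasma membrane into endosomes, so that cells without it take up more glucose. Its own transcription follows the glucose supply: glucose-6-phosphate brings MondoA (*Mlxip*) or ChREBP (*Mlxipl*), each paired with *Mlx*, onto a carbohydrate response element in its promoter. Endothelial cells draw much of their ATP from glycolysis, and they rely on GLUT1 (*Slc2a1*) for uptake. The comparison asked whether the transcripts of this pathway differed between LSECs with and without *Txnip*.

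None of the 42 members with enough counts for a test passed at an adjusted p under 0.05 (edgeR's quasi-likelihood test, Benjamini-Hochberg adjustment over all 11583 genes tested), where 1.55% of all genes tested did. The lowest adjusted p among the members was 0.283, for *Pgk1*. Their log2 fold changes, *Txnip-/-* minus WT, ran from -0.69 (*Slc2a8*) to 0.56 (*Pygl*) with a median of -0.05, beside a median of 0 over all genes tested, whose middle 50% lay between -0.18 and 0.16. By value 15 members were higher and 27 lower in *Txnip-/-* LSECs. At an unadjusted p under 0.05 there were 6 members (14.3%), beside 11.5% of all genes tested: *Pgk1*, *Pkm*, *Slc16a1* and *Pgm1* had higher values (9.52% of the members, beside 5.48% of all genes) and *Slc2a8* and *Hk3* had lower values (4.76%, beside 6.05%). With no normalization factors 0 members were higher and 3 were lower at this threshold (*Aldoa*, *Hk3* and *Slc2a8*). The 3 values of a genotype did not overlap those of the other in 9 members (21.4%), beside 17.4% of all genes. These were *Hk1*, *Pgk1*, *Pkm* and *Slc16a1*, with higher values in *Txnip-/-* LSECs, and *Slc2a8*, *Hk3*, *Aldoa*, *Pfkfb2* and *Pdhb*, with lower ones.

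For most of these transcripts the interval from the spread between libraries stayed within 2-fold either way, but not within 1.3-fold. It bounds a difference between genotypes only as far as that spread covers differences between mice, which is not known. The unadjusted 95% interval of the fold change lay within 2-fold either way for 35 of the 42 members and within 1.3-fold either way for 12: *Aldoa*, *Gpi1*, *Pfkp*, *Pfkfb3*, *Gapdh*, *Pgam1*, *Pkm*, *Ldha*, *Pgls*, *Pgd*, *Tkt* and *Taldo1*. For *Slc2a8*, *Hk3*, *Pfkm*, *Pfkfb2*, *Pdk1*, *Pdk2* and *Pygl*, each under 12 CPM in every library but WT replicate 3 for *Slc2a8*, the interval reached past 2-fold. In 36 of the 42 members the ratio of the highest to the lowest library within either genotype was larger than the ratio between the genotype means. A range over single libraries tends to exceed a difference of means even without a genotype effect, so this count is only a description.

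**Figure D1:**
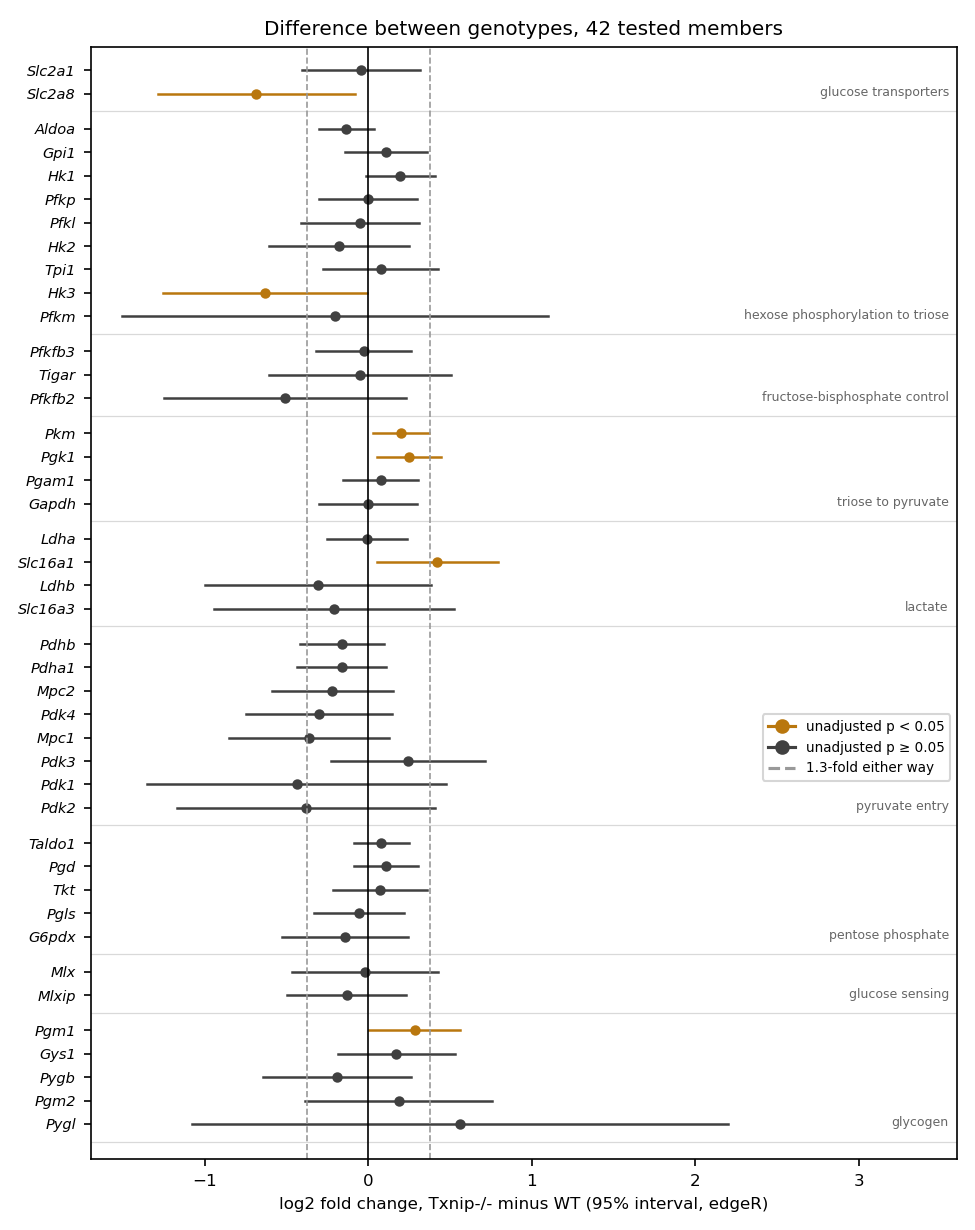
Log2 fold change of each of the 42 tested members, *Txnip-/-* minus WT, on the x axis, with the unadjusted 95% interval from edgeR as a line, and members in rows grouped by role and ordered by WT level. Gold marks the 6 members with an unadjusted p under 0.05, the dashed lines mark 1.3-fold either way, and the points of 35 members lie between the dashed lines.

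**Figure D2:**
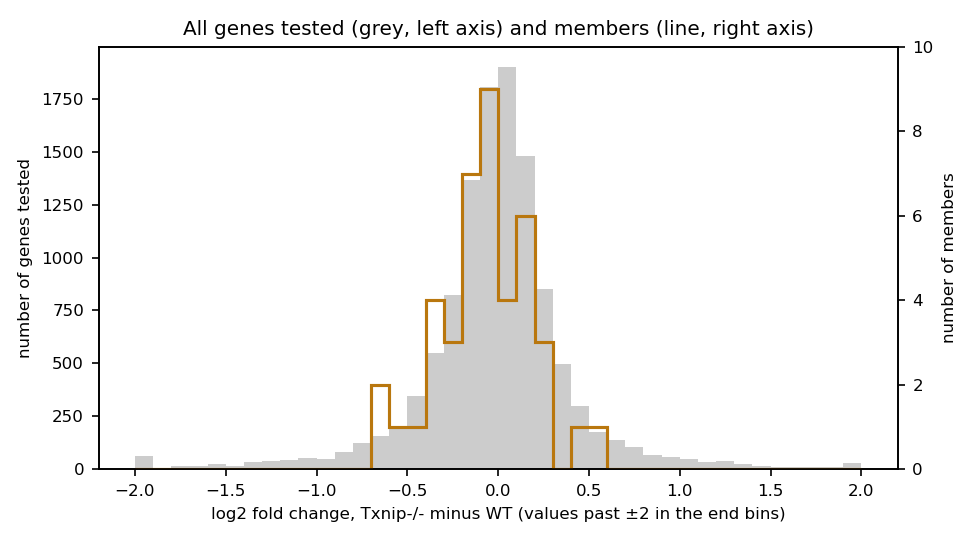
Number of genes per bin of log2 fold change, *Txnip-/-* minus WT, for all 11583 genes tested (grey, left axis) and for the 42 members (line, right axis). The members range from -0.69 to 0.56 and sit within the bulk of the grey distribution.

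The count files held whole-number counts of QuantSeq reads, which come from the 3′ end of each transcript and so do not grow with transcript length; levels are given as CPM, counts scaled to 1 library size with TMM factors, and may be read between genes as numbers of transcript tags. Totals were 9147764 to 10193952 counts in the *Txnip-/-* libraries and 9699159 to 9951078 in the WT libraries, so that 3 counts, taken as the floor of detection, equalled 0.286 to 0.335 CPM. The knocked-out gene itself, *Txnip*, had counts of 269, 216 and 191 with the knockout and of 1901, 2019 and 1994 without it, a log2 fold change of -3.02 (SE 0.14, edgeR adjusted p = 6.94e-10), as the labels say. In WT replicates 1 and 2 the precursor of ribosomal RNA (*Rn45s*) made up 10% and 9.68% of all counts, and in the other 4 libraries 16.8% to 18.6%. On raw counts with the *Rn45s* row included, WT replicate 3 had a chi-square per degree of freedom of 37 and 40.2 against the other WT libraries. WT replicates 1 and 2 differed from each other by 3.93, and pairs of *Txnip-/-* libraries by 8.32 to 9.57. By the same measure WT replicate 3 lay at 13.3, 14 and 17.1 from the *Txnip-/-* libraries, nearer than to its own group. WT replicates 1 and 2 lay at 28.8 to 44.4 from them. The *Rn45s* difference enters all these values, and they were not computed without it. LSEC markers were present, with a sum over 10 genes of 2730 to 3210 CPM in *Txnip-/-* and 3010 to 5230 CPM in WT LSECs. *Lyve1* stood at 3482, 3780 and 1520 CPM in WT replicates 1, 2 and 3. All 10 had lower values in *Txnip-/-* LSECs (log2 fold changes from -0.83 to -0.08), 2 of them at the adjusted threshold. The 6 pan-endothelial markers also had lower values (-0.40 to -0.04), with 0 at that threshold. All 12 tested macrophage markers had lower values in *Txnip-/-* LSECs, 11 of them at the adjusted threshold. The summed level over the 13 listed was 306 to 340 CPM against 742 to 777 CPM. In such bulk samples fewer cells of a type and less RNA per cell cannot be told apart.

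Some members had values in WT replicate 3 away from those of the other WT libraries. *Mlx*, the shared partner of the glucose sensors, stood at 43.4 CPM there and at 29.4 and 21.5 CPM in WT replicates 1 and 2. Over the 42 members, WT replicate 3 lay further from the mean of WT replicates 1 and 2 than the genotype means lay from each other in 27. A single library scatters more than a mean of several, so this count alone does not set WT replicate 3 apart. The median ratio of the highest to the lowest library was 1.34 in WT and 1.24 in *Txnip-/-* LSECs. Leaving that library out turned the sign of the log2 fold change for *Mlx* (0.28 in place of -0.02), *Pfkfb3* (0.11 in place of -0.03), *Hk2* and *Mlxip* (0.03 for each). It moved *Taldo1* from 0.08 to 0.18 (SE 0.05, edgeR adjusted p = 0.0966), *Ldha* from -0.01 to -0.12 and *Slc2a1* from -0.05 to -0.15.

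Levels spread widely along the pathway. *Taldo1*, transaldolase of the non-oxidative pentose phosphate branch, alone made up 34.9% to 38.7% of the members' summed CPM in each library. Above 100 CPM in WT LSECs there were 7 members, and between 10 and 100 CPM there were 28. The sum over all members was 3797 to 4256 CPM per library. The 9 members without enough counts for a test never exceeded 15 counts in a library: *Slc2a3*, *Slc2a4*, *Slc2a6*, *Aldoc*, *Pfkfb4*, *Fbp1*, *Eno1*, *Eno2* and *Mlxipl*.

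**Figure D3:**
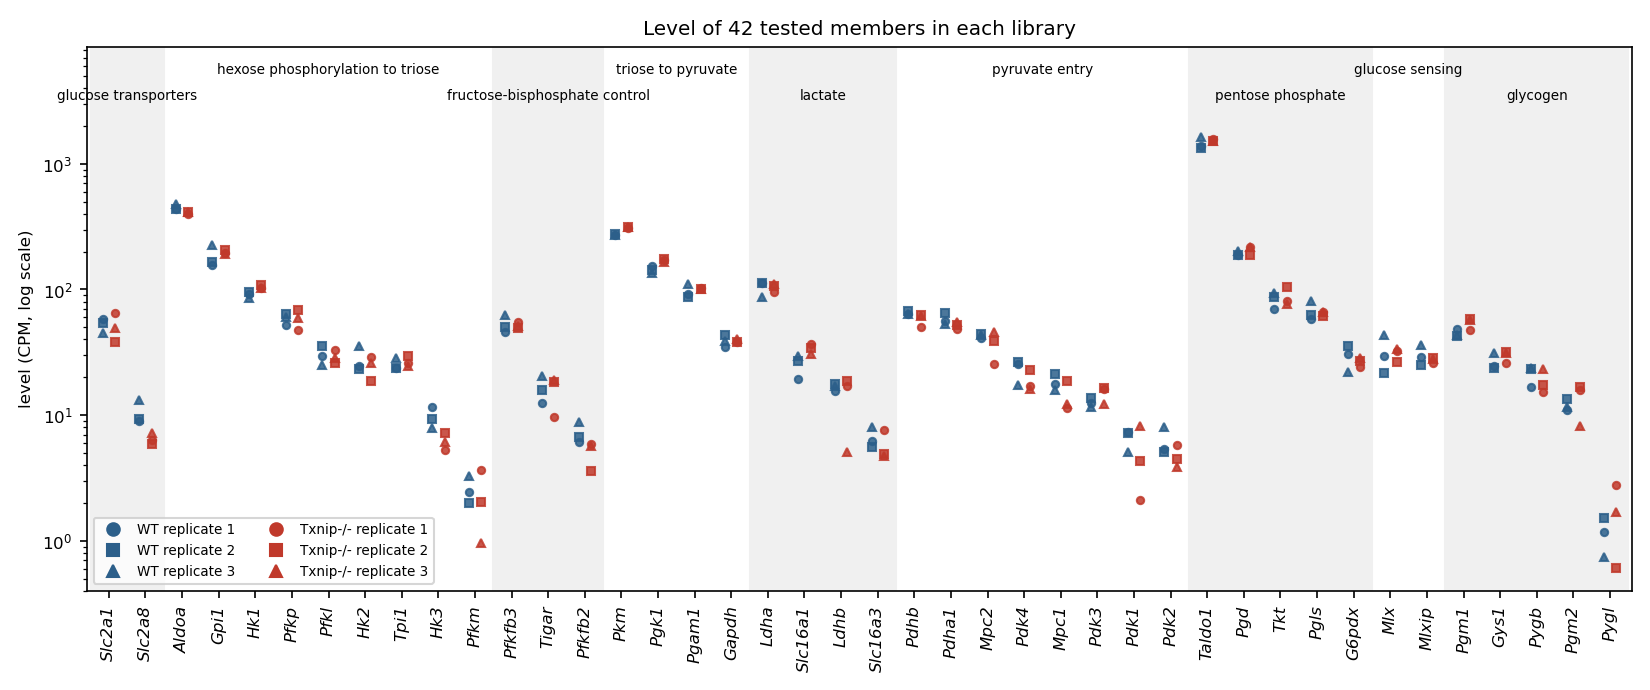
Level in CPM (log scale) of each of the 42 tested members in the 3 WT (blue) and 3 *Txnip-/-* (red) libraries, with the symbol shape giving the replicate and shading separating the roles. *Taldo1* lies highest, between 1333 and 1645 CPM, and in most members the red and blue symbols overlap.

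The promoter of *Txnip* and those of some members hold letters that glucose-sensing or hypoxia-inducible factors are known to read. The windows below show such stretches in *Txnip*, in its paralogue *Arrdc4* and in 8 of the members described here. They come from RefSeq promoters (GRCm38.p6), from 250 bases before to 50 after a RefSeq start of the gene. The match nearest to such a start is shown. For *Ldha* and *Pfkfb3* that start lies inside the gene, well past the first base of the gene as GENCODE bounds it (46841475 for *Ldha*, 11554077 for *Pfkfb3*). The windows run 5′ to 3′ on the strand of the gene and have the matched letters in capitals. For *Txnip* the capitals mark a pair of CACGNG motifs set 5 bases apart, the layout of a carbohydrate response element, at chr3:96557866-96557895 (plus strand). For *Arrdc4* (chr7:68749414-68749443, minus strand), *Slc16a1* (chr3:104638452-104638481, plus), *Ldha* (chr7:46845744-46845773, plus), *Pfkfb3* (chr2:11502126-11502155, minus) and *Mlx* (chr11:101087238-101087267, plus) they mark CACGTG, the E-box. For *Pgk1* (chrX:106186957-106186986, plus), *Hk3* (chr13:55021524-55021553, minus), *Slc2a1* (chr4:119108697-119108726, plus) and *Hk2* (chr6:82774489-82774518, minus) they mark ACGTG, the core of a hypoxia response element, which reads CACGT where it lies on the other strand.
Txnip: actgtgCACGAGGGCTGCACGAGcctccag
Arrdc4: aaaggtcctgtgCACGTGcactatggtgtc
Slc16a1: gcggcgccgggtCACGTGgcgggaaggggg
Ldha: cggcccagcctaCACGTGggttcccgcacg
Pfkfb3: cacccttctctcCACGTGaaagggggctgg
Mlx: ggtgggttggatCACGTGactgagcctcgc
Pgk1: aaatggaagtagCACGTctcactagtctcg
Hk3: actacattttgaCACGTtgcctagttcaac
Slc2a1: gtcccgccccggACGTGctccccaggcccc
Hk2: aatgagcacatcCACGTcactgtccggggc

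A promoter was given for 49 of the 51 members, all but *Slc2a3* and *Slc2a4*. Both strands were searched, and every CACGTG also holds ACGTG. A gene was counted if any promoter given for it held the motif. The spaced pair of CACGNG was found in 15 of 27025 genes with a promoter (0.0555%), *Txnip* among them, and in 0 of the 49 members. CACGTG was found in 8.09% of all genes with a promoter and in 8 of the 49 members (16.3%): *Pfkm*, *Pfkfb2*, *Pfkfb3*, *Ldha*, *Slc16a1*, *Pdk2*, *Mlx* and *Mlxipl*. ACGTG was found in 21.8% of all genes with a promoter, whether or not the gene was expressed here, and in 26 of the 49 members (53.1%). Of the 6 members at an unadjusted p under 0.05 it was found in 5. *Pgk1*, *Pkm*, *Slc16a1* and *Pgm1* had higher values in *Txnip-/-* LSECs and *Hk3* had lower ones, and which gene the *Pgm1* row counts cannot be told. All motif counts are matches of letters in a fixed window and not measured binding sites. A link between motif and genotype was not tested.

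Among the 5 listed glucose transporters, the start of the pathway, *Slc2a1* took most of the counts. It encodes GLUT1, the transporter that TXNIP is known to hold inside the cell. *Slc2a1* stood at 65.4, 38 and 49.1 CPM in the *Txnip-/-* libraries and at 58.6, 54 and 44.7 CPM in the WT libraries. The genotypes overlapped, the highest and the lowest of the 6 values both falling in *Txnip-/-* LSECs. Its log2 fold change was -0.05 (SE 0.17, 95% interval -0.41 to 0.31, edgeR adjusted p = 0.952), and its sign differed in 3 of 16 alternative fits. Of the counts of these 5 transporters *Slc2a1* took 84.7% to 90.6% of the counts in *Txnip-/-* and 77.3% to 85.8% in WT LSECs.

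*Slc2a8* encodes GLUT8, a transporter that resides on internal membranes. It stood at 6.37, 5.91 and 7.27 CPM in the *Txnip-/-* libraries and at 9.05, 9.34 and 13.1 CPM in the WT libraries, without overlap. The log2 fold change was -0.69 (SE 0.29, 95% interval -1.29 to -0.08, unadjusted p = 0.0277, adjusted p = 0.342 by edgeR), the lowest among the members. These levels rest on 57 to 124 counts per library. *Slc2a4*, which encodes the insulin-regulated GLUT4, had 0 counts in all 6 libraries, which allows up to 3 counts per library. *Slc2a3* had 0 to 15 counts and *Slc2a6* had 8 counts in WT replicate 2 and 0 elsewhere. Outside the list, *Slc2a9*, which encodes a urate and hexose transporter, stood at 16.8 to 27.8 CPM in *Txnip-/-* and 26 to 30.3 CPM in WT LSECs (log2 fold change -0.25, SE 0.19, edgeR adjusted p = 0.683), and *Slc2a12* stood at 0.642 to 6.52 and 3.6 to 4.44 CPM.

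Hexokinases trap glucose by phosphorylation, and *Hk1*, the housekeeping form bound to mitochondria, led them. *Hk1* stood at 102.2, 108.2 and 102.2 CPM in the *Txnip-/-* libraries and at 92.5, 95.2 and 85.4 CPM in the WT libraries. Every *Txnip-/-* value lay above every WT value, with a log2 fold change of 0.19 (SE 0.10, 95% interval -0.02 to 0.41, edgeR adjusted p = 0.484). *Hk2*, the inducible form, stood at 29.3, 18.7 and 25.8 CPM against 24.8, 23.3 and 35.2 CPM, with overlap and a log2 fold change of -0.18 (SE 0.20, 95% interval -0.61 to 0.25, adjusted p = 0.829).

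*Hk3*, a hexokinase known from myeloid cells, stood at 5.25, 7.24 and 6.09 CPM in the *Txnip-/-* libraries and at 11.6, 9.34 and 7.93 CPM in the WT libraries. The genotypes did not overlap, and the log2 fold change was -0.63 (SE 0.30, 95% interval -1.26 to -0.01, unadjusted p = 0.047, adjusted p = 0.427 by edgeR). *Hk3* thus took 3.84%, 5.4% and 4.55% of the hexokinase counts in *Txnip-/-* and 8.99%, 7.3% and 6.17% in WT LSECs. The macrophage markers moved with it: all 12 tested had lower values in *Txnip-/-* LSECs, 11 of them at the adjusted threshold. Their log2 fold changes ranged from -2.07 to -0.75 with a median of -1.48, and the part of macrophages in the *Hk3* value was not tested. The 3′ end of *Hk3* also overlaps an exon of *Unc5a* on the opposite strand, and whether the counting used strand was not given in the sources used here.

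Further down to the triose phosphates, the members overlapped between genotypes apart from *Aldoa*. *Aldoa*, the aldolase that splits the hexose bisphosphate, was the second most abundant member at 401.9, 416.2 and 415.4 CPM in the *Txnip-/-* libraries and 439.4, 436.8 and 480.1 CPM in the WT libraries. Its values did not overlap, with a log2 fold change of -0.14 (SE 0.08, 95% interval -0.31 to 0.03, edgeR adjusted p = 0.553). *Gpi1*, glucose-phosphate isomerase, stood at 193.7, 205.1 and 191.6 CPM against 157.3, 165.7 and 225.7 CPM, so that WT replicate 3 was highest and the other WT libraries lowest. Phosphofructokinase, the committed step, was led by the platelet form *Pfkp* (its 3′ end overlaps an exon of *Pitrm1* on the opposite strand) with 56.6% to 71% of the family's counts in *Txnip-/-* and 62.1% to 67.8% in WT LSECs. The log2 fold change was -0.05 (SE 0.17) for the liver form *Pfkl* and -0.21 (SE 0.62) for the muscle form *Pfkm*, which had 9 to 33 counts per library. *Tpi1*, triose-phosphate isomerase, had a log2 fold change of 0.08 (SE 0.17), and its 3′ end overlaps an exon of *Spsb2* on the opposite strand.

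The Pfkfb enzymes make the fructose bisphosphate that activates phosphofructokinase, and *Pfkfb3* is known as the main one in endothelial cells. *Pfkfb3* stood at 55.2, 49.3 and 51.1 CPM in the *Txnip-/-* libraries and at 45.5, 50.2 and 63.2 CPM in the WT libraries. It had a log2 fold change of -0.03 (SE 0.14, 95% interval -0.32 to 0.26, edgeR adjusted p = 0.961) and overlapped. *Pfkfb2* had 35 to 53 counts in *Txnip-/-* and 63 to 83 in WT libraries, without overlap (log2 fold change -0.51, SE 0.35, adjusted p = 0.641). *Pfkfb3* accordingly took 90.3%, 91.8% and 90% of the Pfkfb counts in *Txnip-/-* and 87.5%, 86.1% and 87.7% in WT LSECs. *Tigar*, a phosphatase that opposes them, ranged from 9.71 to 18.9 CPM in *Txnip-/-* and from 12.6 to 20.6 CPM in WT LSECs. *Fbp1*, the gluconeogenic phosphatase, had 8 counts in WT replicate 3 and 0 in the other libraries.

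The payoff steps from triose to pyruvate held the pair of members with the lowest unadjusted p. *Pgk1*, phosphoglycerate kinase, which makes ATP, lies on the plus strand of chromosome X, at 106187100 to 106203699 of GRCm38. Its counts of 1532, 1721 and 1560 with *Txnip* deleted and 1579, 1506 and 1282 in WT libraries correspond to 171.1, 175.4 and 166.8 CPM against 153.7, 143.5 and 135.6 CPM. Every *Txnip-/-* library was above every WT library on the CPM scale. The log2 fold change was 0.25 (SE 0.09, 95% interval 0.05 to 0.44, unadjusted p = 0.0164, adjusted p = 0.283 by edgeR). *Pkm*, pyruvate kinase, makes the second ATP of the pathway and lies on the plus strand of chromosome 9, at 59656368 to 59679375. It stood at 309, 316.7 and 314.6 CPM against 269.4, 277.7 and 271.5 CPM, the lowest ratio of highest to lowest library of any tested member in either genotype, and the genotypes did not overlap. Its log2 fold change was 0.20 (SE 0.08, 95% interval 0.03 to 0.37, unadjusted p = 0.0244, adjusted p = 0.326).

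*Gapdh*, which oxidises the triose phosphate and is used as a reference gene in the study's PCR, stood at 38, 38.2 and 40.5 CPM in the *Txnip-/-* libraries and at 34.7, 43.6 and 38.8 CPM in the WT libraries. Its log2 fold change was -0.01 (SE 0.14, 95% interval -0.30 to 0.29, edgeR adjusted p = 0.994), with the sign turning in 5 of 16 alternative fits and values between -0.09 and 0.08. *Pgam1*, the mutase between *Pgk1* and enolase, had a log2 fold change of 0.07 (SE 0.11) at 100.5 to 103.7 CPM in *Txnip-/-* and 87.9 to 111 CPM in WT LSECs. The 6 members of these steps summed to 622 to 631 CPM in the *Txnip-/-* libraries and 549 to 557 CPM in the WT libraries. *Pkm* and *Pgk1* made up most of that sum.

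Levels of these enzymes are uncertain where copies exist, because the authors counted reads with several alignments. The last 500 bases of *Gapdh* match 91 other annotated genes, 87 of them pseudogenes, at 95% identity or more over at least 75 bases. *Pkm* matched 5 and *Pgk1* matched 3. Further members with such matches were *Gpi1* (6), *Mpc1* (2), and *Tpi1*, *Ldha*, *Ldhb* and *Pdhb* (1 each). *Aldoa*, *Pgm1* and *Pgm2* were searched neither for such matches nor for overlaps of their 3′ ends. The levels of the members with matches, and the shares of the Ldh counts below, carry the same limit. *Eno1*, the main enolase, was listed with 0 counts in all 6 libraries, while *Eno1b*, whose 3′ end is near-identical, was listed in 2 rows, the first with 343 to 411 counts in *Txnip-/-* and 336 to 418 in WT libraries. The level of *Eno1* itself therefore cannot be read from these files. *Eno1b* had a log2 fold change of 0.07 (SE 0.14, edgeR adjusted p = 0.909), and the neuronal *Eno2* had at most 6 counts in a library.

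Lactate dehydrogenase returns pyruvate to lactate. *Ldha* stood at 96.3, 105.8 and 110.3 CPM in the *Txnip-/-* libraries and at 113.6, 113.4 and 87.1 CPM in the WT libraries. It had a log2 fold change of -0.01 (SE 0.12, 95% interval -0.25 to 0.24, edgeR adjusted p = 0.989) and the sign turned in 5 of 16 alternative fits. *Ldhb*, the form that favours the reverse reaction, had 48 counts in *Txnip-/-* replicate 3 and 152 to 187 in the other 5 libraries. *Ldha* took 95.6% of the Ldh counts in that library and 83.6% to 88% in the others.

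*Slc16a1* encodes the lactate and pyruvate carrier MCT1 and lies on the plus strand of chromosome 3, at 104638668 to 104658462. Counts were 328, 335 and 288 for *Txnip-/-* and 200, 281 and 280 for WT LSECs, or 36.6, 34.2 and 30.8 CPM against 19.5, 26.8 and 29.6 CPM. The genotypes did not overlap, though the lowest *Txnip-/-* value was close to the highest WT value. Its log2 fold change was 0.42 (SE 0.18, 95% interval 0.05 to 0.79, unadjusted p = 0.0283, adjusted p = 0.345 by edgeR). *Slc16a3*, which encodes MCT4, the carrier that exports lactate, ranged from 4.7 to 7.59 CPM in *Txnip-/-* and 5.62 to 8.04 CPM in WT LSECs.

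For the entry of pyruvate into mitochondria, 7 of the 8 members had lower values in *Txnip-/-* LSECs and none had an unadjusted p under 0.05. The median log2 fold change was -0.26, beside 0 over all genes tested, with a range from -0.44 (*Pdk1*) to 0.24 (*Pdk3*). Tested genes of this step outside the list went both ways. *Pcx* (0.76, SE 0.61), *Dlat* (0.09, SE 0.17) and *Dld* (0.04, SE 0.14) had higher values. *Pdhx* (-0.14, SE 0.17), *Pdp1* (-0.17, SE 0.23) and *Pdp2* (-0.11, SE 0.33) had lower ones. *Pdhb*, a subunit of pyruvate dehydrogenase, stood at 50.5, 62.3 and 61.5 CPM in the *Txnip-/-* libraries and at 63.9, 67.4 and 63.7 CPM in the WT libraries, without overlap (log2 fold change -0.16, SE 0.12, edgeR adjusted p = 0.678). Its partner *Pdha1* stood at 48.1, 51.8 and 55.6 CPM against 55.8, 65.5 and 52.9 CPM, with overlap (log2 fold change -0.16, SE 0.13, adjusted p = 0.696). The pyruvate carrier subunits *Mpc1* and *Mpc2* had log2 fold changes of -0.36 (SE 0.23) and -0.22 (SE 0.18), with *Txnip-/-* replicate 1 lowest in both. The 3′ ends of *Pdha1* and *Mpc1* overlap exons on the opposite strand, of *Map3k15* and *4930506C21Rik*. The 8 members summed to 177 to 220 CPM in *Txnip-/-* and 218 to 251 CPM in WT libraries, and these ranges overlapped.

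The pyruvate dehydrogenase kinases, which switch that enzyme off, were led by *Pdk4*, the form induced on fasting, with 39.9% to 47.7% of the family's counts in *Txnip-/-* and 41.3% to 50.4% in WT LSECs. *Pdk3* took 39.1%, 34.1% and 30.3% in *Txnip-/-* and 24.7%, 26.1% and 27.5% in WT LSECs. The shares of *Pdk3* did not overlap, while its CPM did (log2 fold change 0.24, SE 0.22, edgeR adjusted p = 0.761). *Pdk1* varied most within a genotype here, with 19, 42 and 76 counts for *Txnip-/-* and 76, 76 and 48 counts for WT LSECs.

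**Figure D4:**
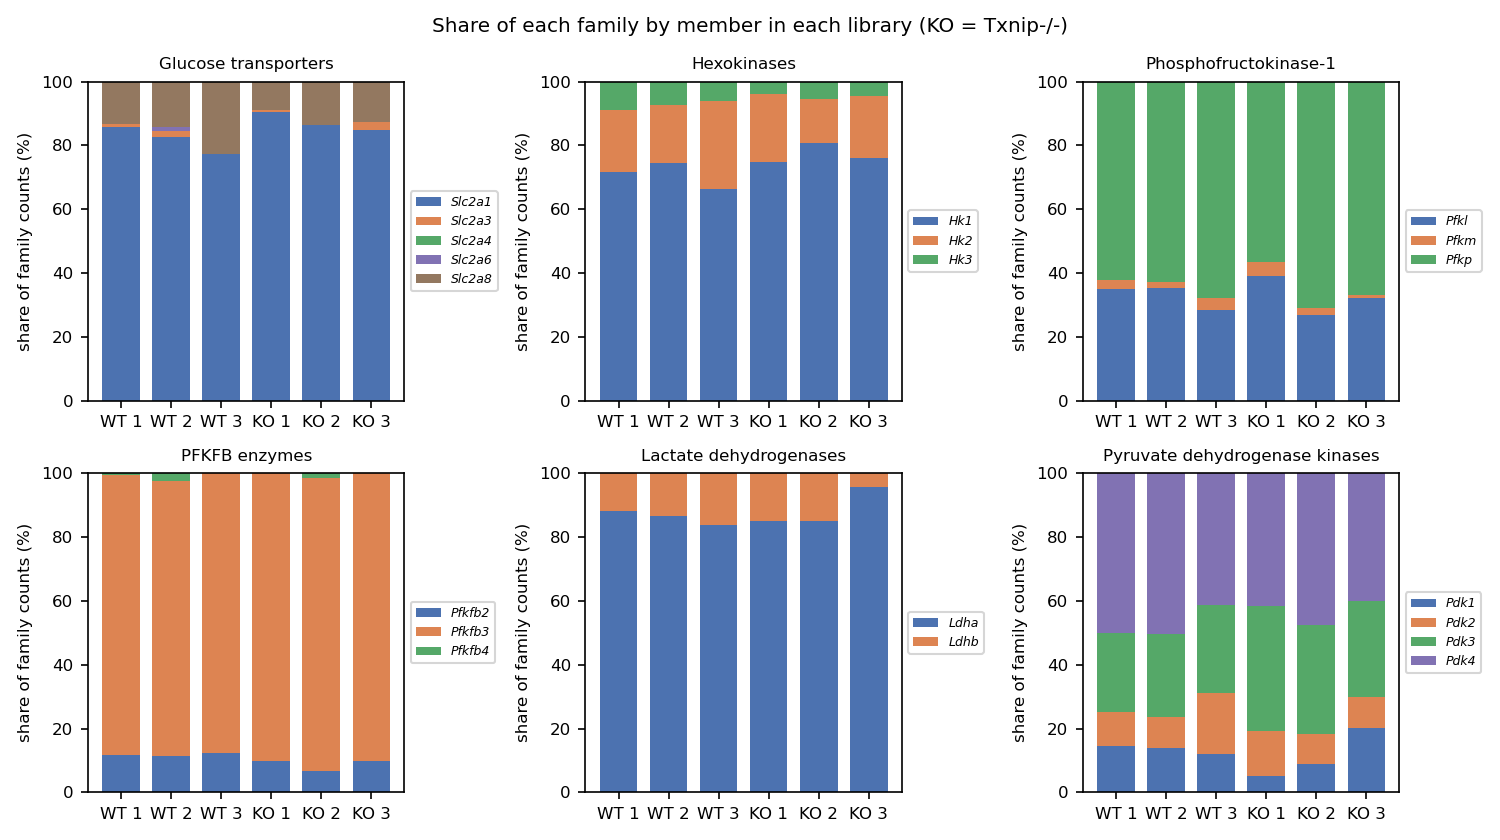
Share in percent of the counts of each enzyme or transporter family taken by each listed member, as stacked bars for the 3 WT and 3 *Txnip-/-* (KO) libraries. *Slc2a1*, *Hk1*, *Pfkp*, *Pfkfb3* and *Ldha* lead their families in all 6 libraries, and *Pdk4* leads the kinases.

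The pentose phosphate pathway supplies NADPH and ribose. For *Taldo1* the *Txnip-/-* libraries had 14126, 14997 and 14098 counts and the WT libraries 14270, 13996 and 15554, or 1577, 1529 and 1507 CPM against 1389, 1333 and 1645 CPM. WT replicate 3 was the highest and the other WT libraries were the lowest. Its log2 fold change was 0.08 (SE 0.08, 95% interval -0.09 to 0.25, edgeR adjusted p = 0.797). Of the oxidative branch, *G6pdx*, which commits glucose-6-phosphate to the pathway, stood at 24.2, 26.9 and 28.8 CPM against 30.7, 35.3 and 22.1 CPM, a log2 fold change of -0.14 (SE 0.18). *Pgd*, which makes the further NADPH, stood at 216.3, 189.5 and 219.4 CPM against 188.5, 187 and 204.1 CPM, a log2 fold change of 0.11 (SE 0.09). *Pgls* and *Tkt* had log2 fold changes of -0.06 (SE 0.13) and 0.07 (SE 0.14). All 5 members overlapped between genotypes, and none had an unadjusted p under 0.05.

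Of the sensors that link glucose to *Txnip* transcription, *Mlxip* and *Mlx* were measured and *Mlxipl* lay at or under the floor of 3 counts. *Mlxip*, which encodes MondoA, stood at 26, 28.3 and 27.8 CPM in the *Txnip-/-* libraries and at 28.9, 24.9 and 36.5 CPM in the WT libraries (log2 fold change -0.13, SE 0.17, 95% interval -0.50 to 0.23, edgeR adjusted p = 0.856). *Mlx* stood at 32.5, 26.4 and 33.9 CPM against 29.4, 21.5 and 43.4 CPM (log2 fold change -0.02, SE 0.21, 95% interval -0.47 to 0.42, adjusted p = 0.983). Both overlapped, and WT replicate 3 held the highest value of each. *Mlxipl*, which encodes ChREBP, the sensor of hepatocytes, had 2 counts in *Txnip-/-* replicate 3, 3 counts in WT replicate 1 and 0 in the other 4 libraries. The 3′ end of *Mlx* overlaps an exon of *Psmc3ip* on the opposite strand.

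**Figure D5:**
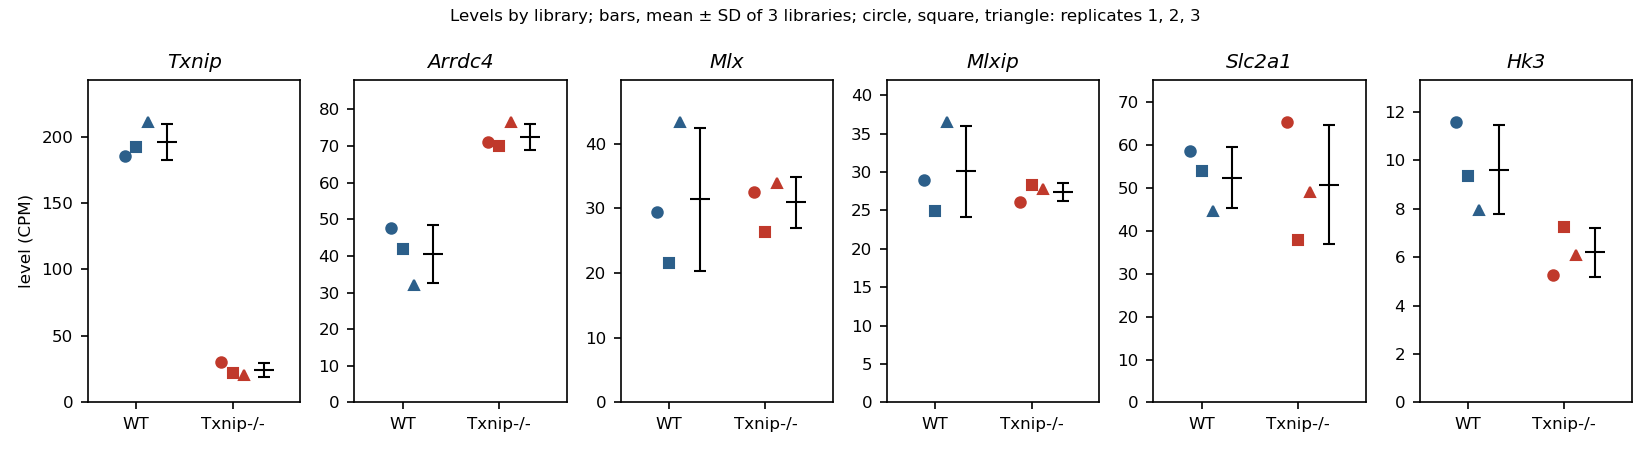
Level in CPM of *Txnip*, its paralogue *Arrdc4*, the sensors *Mlx* and *Mlxip*, the transporter *Slc2a1* and the hexokinase *Hk3* in each library, with the mean and SD of the 3 libraries of a genotype beside the points. *Txnip* is lower and *Arrdc4* is higher in every *Txnip-/-* library, *Mlx*, *Mlxip* and *Slc2a1* overlap, and *Hk3* lies between 5.25 and 7.24 CPM in *Txnip-/-* and between 7.93 and 11.6 CPM in WT LSECs.

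Glycogen, the store that branches from glucose-6-phosphate, was represented by 5 members. For *Pgm1* the *Txnip-/-* libraries had 429, 574 and 536 counts and the WT libraries 498, 450 and 409, or 47.9, 58.5 and 57.3 CPM against 48.5, 42.9 and 43.3 CPM. Replicate 1 of *Txnip-/-* lay within the WT values, and the log2 fold change was 0.28 (SE 0.13, 95% interval 0.005 to 0.56, unadjusted p = 0.0466, adjusted p = 0.425 by edgeR). RefSeq lists the symbols *Pgm1* and *Pgm2* as synonyms of each other, so which of these phosphoglucomutases a row counts cannot be told here, and the row named *Pgm2* had a log2 fold change of 0.19 (SE 0.27). *Gys1*, glycogen synthase, had a log2 fold change of 0.17 (SE 0.17) at 26.1 to 31.9 CPM in *Txnip-/-* and 23.7 to 31.2 CPM in WT LSECs. *Pygb*, the brain form of glycogen phosphorylase, took 84.5% to 96.6% of the phosphorylase counts in *Txnip-/-* and 93.4% to 97% in WT LSECs, and the liver form *Pygl* had 6 to 25 counts per library.

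A further 83 genes of glucose metabolism and its regulation were listed beside the members, and 53 of them had enough counts for a test. Only *Arrdc4* passed at the adjusted threshold, which is 1.89% of the 53 beside 1.55% of all genes tested. *Arrdc4* encodes the alpha-arrestin closest to TXNIP, which is known to act on glucose uptake and to be driven by the same sensors. *Txnip-/-* libraries held 636, 686 and 716 of its counts and WT libraries 488, 441 and 302, or 71, 69.9 and 76.6 CPM against 47.5, 42 and 31.9 CPM. Every *Txnip-/-* library was above every WT library. The log2 fold change was 0.84 (SE 0.14, 95% interval 0.54 to 1.14, edgeR adjusted p = 0.00342), and it passed in all 16 alternative fits with values from 0.70 to 1.18.

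At an unadjusted p under 0.05 there were 7 of the 53 (13.2%, beside 11.5% of all genes tested), 6 with higher and 1 with lower values in *Txnip-/-* LSECs. *Adpgk*, the ADP-dependent glucokinase, stood at 29.1, 37.7 and 33.7 CPM in the *Txnip-/-* libraries and at 22, 24.4 and 23.9 CPM in the WT libraries, without overlap (log2 fold change 0.52, SE 0.16, edgeR adjusted p = 0.16). *Hif1a*, the hypoxia-inducible factor that drives glycolytic genes, stood at 187.3, 155.4 and 180.5 CPM against 142.6, 133.4 and 148.3 CPM, without overlap (log2 fold change 0.30, SE 0.10, adjusted p = 0.189). Its DNA-binding partner *Arnt* was the gene with lower values, at 24.1, 23.3 and 18.2 CPM against 34.9, 31 and 29.4 CPM, without overlap. The log2 fold change of *Arnt* was -0.54 (SE 0.17, edgeR adjusted p = 0.168). *Arnt* lies at 95434388 to 95497240 of chromosome 3, near the deleted *Txnip* at 96557957 to 96561883. Whether this closeness has a part in the *Arnt* value was not tested. *Gbe1*, the glycogen branching enzyme, stood at 51, 47.6 and 47.4 CPM against 41.3, 31.3 and 38.9 CPM (log2 fold change 0.39, SE 0.14, adjusted p = 0.267). *H6pd*, which makes NADPH inside the endoplasmic reticulum, and *Prps1*, which uses ribose phosphate for nucleotides, had log2 fold changes of 0.22 (SE 0.09) and 0.34 (SE 0.16). *Foxo1*, a transcription factor restrained by insulin, and *G6pc3*, the widely expressed glucose-6-phosphatase, came next among the lower values, with log2 fold changes of -0.21 (SE 0.12, adjusted p = 0.531) and -0.50 (SE 0.31, adjusted p = 0.58). Over the 53 genes the median log2 fold change was -0.01, with 25 higher and 28 lower by value.

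None of the tested members passed the adjusted threshold in any of 16 alternative fits. The log2 fold changes of *Pgk1* lay between 0.16 and 0.34, those of *Pkm* between 0.12 and 0.21, those of *Slc16a1* between 0.19 and 0.55, those of *Pgm1* between 0.20 and 0.37, those of *Slc2a8* between -1.01 and -0.50, and those of *Hk3* between -0.76 and -0.36. Without WT replicate 3 the median over the tested members was 0.02 in place of -0.05, and 7 members had an unadjusted p under 0.05, 4 of them also among the original 6: *Hk3*, *Pgk1*, *Pkm* and *Slc16a1*. The other 3, named after their values were seen, were *Gpi1*, *Taldo1* and *Pdk4*.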

How the data were processed

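RNA of LSECs from 3 *Txnip-/-* and 3 WT libraries was measured by QuantSeq. The authors used Bowtie2 for alignment and Bedtools coverage for counting, kept reads with several alignments, and deposited whole-number counts without normalization, on build mm10 by the submitters' processing notes. Versions, annotation and strand setting were not given in the sources used here. No molecular identifiers were named, so floors cover counting error only.

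Counts were fitted in R 4.3.3 with edgeR 4.0.16 (filterByExpr, TMM, glmQLFit, glmQLFTest), genotype being the only term, over the 11583 genes that passed the filter (44 rows of the files that repeat a symbol were kept apart), and Benjamini-Hochberg adjustment over all of them. SEs were the absolute log2 fold change over the square root of F, and the 95% intervals from these with the fit's degrees of freedom. Replicate numbers were not taken to pair the libraries. The test was checked on simulated data. Positions are from GENCODE on GRCm38, and promoters from RefSeq. The members and lists were chosen with earlier results of these data known.

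Named with full values were members with an adjusted or an unadjusted p under 0.05, the most abundant of each role, and *Slc2a1*, *Slc2a4*, *Hk2*, *Gapdh*, *Mlx*, *Mlxip* and *Mlxipl*. Of the 83 other genes, those with an adjusted p under 0.05 and up to 3 each way by smallest p were named. *H6pd*, *Prps1*, *Eno1b*, *Slc2a9*, *Slc2a12*, *Pcx*, *Dlat*, *Dld*, *Pdhx*, *Pdp1* and *Pdp2* were added after their values were seen, as were values of other members beside these. Markers of other cells were also listed: 0 of 6 pan-endothelial, 0 of 5 hepatocyte and 0 of 1 cholangiocyte genes tested passed at the adjusted threshold, 1 of 6 stellate genes was higher, and no neutrophil or lymphocyte gene had enough counts. Alternatives were DESeq2 1.42.0, limma-trend (limma 3.58.1), RLE, upper quartile or no normalization factors, no filter or at least 10 counts in 3 libraries, a replicate block, each library left out, the *Rn45s* row left out, a term for WT replicates 1 and 2, and other thresholds. The count of members at an unadjusted p was recomputed under each after seeing the data.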

Additional observations from a re-analysis of the deposited data

How the results depend on the processing

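The count of members past the adjusted threshold was 0 in all 16 alternative fits and 6 at an unadjusted p under 0.05, which gave 7 for the other pathway genes and 1336 for all genes. Over all genes 179 passed, against 302 with DESeq2, 346 with no filter on low counts, and 89 (without WT replicate 1) to 367 (without WT replicate 3) when a library was left out. The members' median log2 fold change of -0.049 became -0.13 with no normalization factors, where the median of all genes was -0.082, and -0.097 with a term for WT replicates 1 and 2. It ranged from -0.087 to 0.018 when a library was left out, the positive value without WT replicate 3. Members at an unadjusted p under 0.05 numbered 3 to 8 over the fits, 3 of them with no normalization factors, without *Txnip-/-* replicate 2, and without WT replicate 1 or 2. With the replicate block 108 of all genes and 0 members passed, 3 members had an unadjusted p under 0.05, and the block changed no other call. Same-numbered libraries had deviations that correlated at -0.03, 0.017 and -0.047, and pairing by number was not supported. The cause of these changes was not tested. The 9 members under the filter had too few counts for a test.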
